A study of Mus musculus with 5 samples.

Results

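The epithelial cells of the kidney were compared between the chronic and the acute phase of aristolochic acid I (AAI) nephropathy. An epithelial barcode was defined by at least 1 unique molecular identifier (UMI, 1 captured RNA molecule) of the epithelial genes Cdh16 (cadherin-16, a kidney-specific adhesion protein) or Epcam (an epithelial adhesion protein). It also had no UMI of Ptprc (CD45), of Cd3e, Cd3d or Cd3g, or of Pecam1, and at most 2 UMIs of C1qa, C1qb and C1qc together. Only barcodes with at least 200 genes and at most 30% mitochondrial UMIs were considered. These limits kept 3918 of 50875 barcodes in the 4 libraries: 824 and 657 in the acute libraries (AKI 1 and 2) and 2143 and 294 in the chronic libraries (CKD 1 and 2). All mice were male wild-type C57BL/6 animals of 8 to 10 weeks. AAI (3 mg/kg per dose) was injected into the peritoneum at intervals of 3 days over 2 weeks, and kidneys were taken at week 2 (AKI, 2 libraries) or at week 4 after a further 2 weeks without AAI (CKD, 2 libraries). A control library without AAI (the methods of the model state vehicle injections), of which 3040 barcodes met the same limits, is given for reference only, since it has no replicate. The sample sizes given for sequencing equal the number of libraries, but whether each library was 1 mouse is not spelled out, so the spread between libraries may be partly technical.

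The nephron is lined by a chain of specialised epithelia. The proximal tubule reabsorbs most filtered solutes, runs largely on fatty acid oxidation and takes up organic anions, which makes it the main site of injury by AAI, a plant toxin whose reactive metabolites bind DNA. The thick ascending limb reabsorbs sodium chloride and secretes uromodulin and epidermal growth factor, and the distal tubule and collecting duct adjust salt, acid and water. Injured tubule cells are known to lower their transporters, to induce p53 targets such as Cdkn1a (the cell cycle inhibitor p21), and to make adhesion molecules, complement and chemokines.

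The epithelial barcodes held 10220747 and 8445204 UMIs in the AKI libraries and 14799772 and 3489754 UMIs in the CKD libraries, and CKD 1 was the shallowest per barcode, with a median of 3325 UMIs against 6308 to 8517 in the other libraries. Levels are given as CPM, the UMIs of a gene per 1000000 UMIs summed over the barcodes of a library. Cdh16 lay between 720 and 841 CPM and Epcam between 514 and 566 CPM, which the rule itself fixes in part. Between 26.6% and 32.6% of the epithelial barcodes of the 4 libraries carried a single UMI of the 2 genes. Markers of other cells were not absent: the summed level of 11 T lymphocyte markers was 147, 149, 418 and 107 CPM, and that of 9 macrophage and monocyte markers was 112, 168, 366 and 96.9 CPM, both AKI libraries being given first. CKD 1 was highest for both lists, the groups overlapped, and the Cd3 genes were at 0 by definition. Free RNA was judged from barcodes of the same libraries that should lack tubule transcripts, a T lymphocyte gate and a macrophage gate, and a gene is said to be no higher than a gate where both libraries of the group with its higher level lay at or below that gate. Barcodes of the T lymphocyte gate had medians of 3261.5 to 5548 UMIs, against which shares of barcodes with a UMI are to be read. At most 1 epithelial barcode sequence was shared by any pair of the 4 libraries, and doublets were not called.

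Each epithelial barcode was placed in the nephron segment whose markers it expressed most (proximal tubule, thin limb, thick ascending limb, distal convoluted tubule, connecting tubule and principal cells, intercalated cells, or urothelium). The leading genes of these classes were segment transcripts, for example Slc34a3 and Slc5a12 in the proximal tubule class and Slc12a1 and Cldn16 in the thick ascending limb class, although Ren1 (renin) and the chemokine Cxcl5 were also among the first 10 genes of the latter. These classes are ranges of a score, since between 7.82% and 17.2% of the barcodes of a library lay near the border between 2 classes. The proximal tubule class held 23.5% and 32.0% of the AKI barcodes and 22.7% and 37.8% of the CKD barcodes. The thick ascending limb class held 28% and 19.9% against 33.8% and 22.4%. The libraries of 1 group differed as much as the groups in both. The groups did not overlap for the thin limb class (10.1% and 12.3% in AKI, 9.33% and 8.84% in CKD) nor for the distal convoluted tubule class (5.34% and 4.72% against 3.36% and 2.72%). With 2 libraries against 2, a two-sided exact permutation test gave p = 0.333 for each of these 2 classes, the smallest value it can reach here. A share of barcodes depends on which cells survived dissociation as well as on the tissue, and fewer cells and less RNA per cell cannot be told apart in a summed level.

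**Figure D1:**
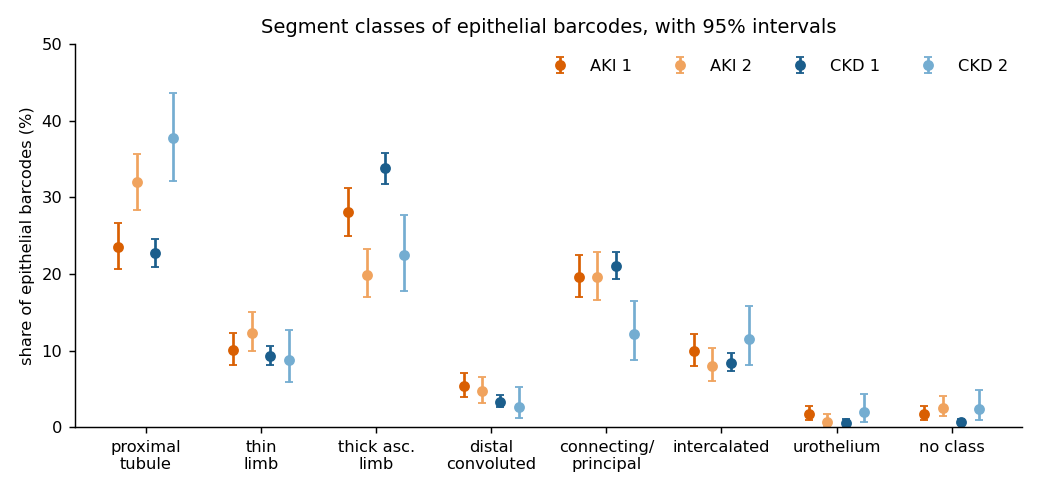
The share of epithelial barcodes in each segment class (percent, vertical axis) is shown for the 4 libraries, with exact binomial 95% intervals that cover counting error only. The proximal tubule and thick ascending limb shares of AKI and CKD overlap, whereas both CKD points lie below both AKI points in the thin limb and distal convoluted tubule classes.

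Over all epithelial barcodes, a single gene passed the test between CKD and AKI (edgeR quasi-likelihood test on UMIs summed per library, Benjamini-Hochberg adjusted p under 0.05). It was Mmp9, the secreted protease gelatinase B, 1 of 13614 genes tested or 0.00735%. At an unadjusted p under 0.05 stood 1286 genes, 9.45% of those tested, of which 756 (5.55%) were higher in CKD and 530 (3.89%) lower, and DESeq2 called 98. Mmp9 (chr2:164780439-164797771 in GRCm39, plus strand) lay at 0.294 and 0.592 CPM in AKI, at 113 and 94.6 CPM in CKD and at 0.282 CPM in the control. It rose (adjusted p = 0.00026, edgeR), but its AKI level rested on 3 and 5 UMIs and it passed the filter on low counts through the CKD libraries, so no fold is given. The same libraries held 190 and 151 CPM of Mmp9 in the T lymphocyte gate in CKD, so its epithelial level did not exceed that of cells that do not line tubules.

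The Mmp9 UMIs were unevenly spread. In CKD 2, 298 of 330 epithelial Mmp9 UMIs, or 90.3%, came from 1 barcode, which also held 163 of 202 UMIs of Ctsk (cathepsin K), 289 of 407 UMIs of Acp5 (tartrate-resistant acid phosphatase) and 44 of 50 UMIs of Mt3 (a metallothionein). That barcode had been placed in the intercalated cell class through Atp6v0d2, a proton pump subunit that osteoclast-type cells also use, and had no UMI of the other intercalated cell markers. In CKD 1, 18 barcodes of this kind held 575 of 1669 Mmp9 UMIs (34.5%), and the thick ascending limb class held another 38.6%. Leaving out barcodes with over 2 UMIs of Mmp9, Ctsk and Acp5 together, a limit chosen after the values were seen, removed 14.8% of the epithelial barcodes of CKD 1 and between 1.82% and 5.78% of those of the other 3 libraries. In the AKI proximal tubule class these UMIs were nearly all of Acp5, with 76 and 115 UMIs against 0 of Mmp9 and 0 and 1 of Ctsk. Since that limit removes Mmp9 UMIs by construction, it is no test of Mmp9, and edgeR called none of the other genes in that setting, with 1174 at an unadjusted p under 0.05. The strict gate, also chosen after the values were seen, kept barcodes with no UMI of nearly all listed leukocyte, endothelial and fibroblast markers. There Mmp9 lay at 0 and 0.974 CPM in AKI and 17 and 12 CPM in CKD, still below both gates of the CKD libraries. It again passed the filter on low counts through the CKD libraries. These barcodes are also part of those of the first test, so its p there (adjusted p = 0.0036, edgeR) adds no support. Mt3 lay at 0.294 and 0.474 CPM in AKI and 28 and 14.3 CPM in CKD and did not pass (adjusted p = 0.067, edgeR).

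**Figure D2:**
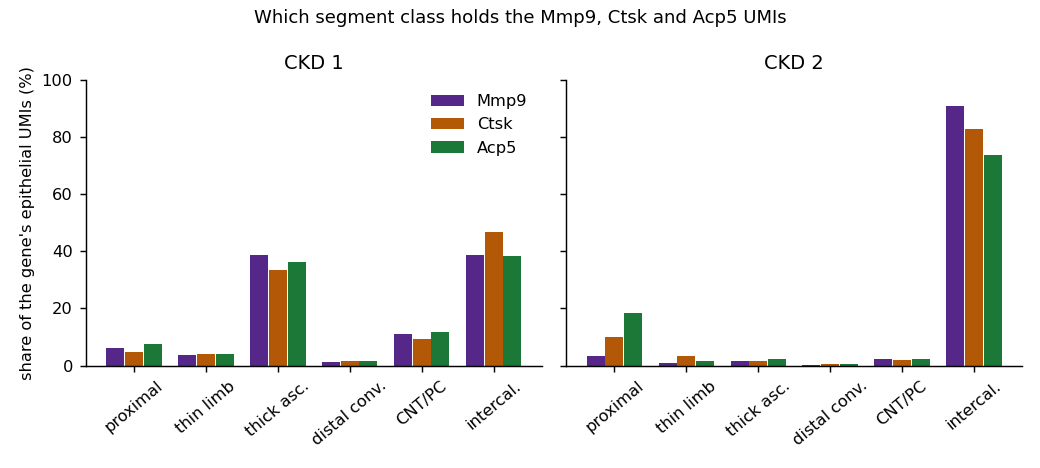
Bars give the percent of all epithelial UMIs of Mmp9, Ctsk and Acp5 that fall in each segment class, in CKD 1 and CKD 2. In CKD 1 the thick ascending limb class holds 38.6% and the intercalated cell class 38.8% of the Mmp9 UMIs, whereas in CKD 2 the intercalated cell class holds 90.9%, nearly all from 1 barcode.

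None of the 20 gene lists held another gene called by edgeR at this level, so their members are given as values. DESeq2 called members of some lists, among them 6 of 25 of tubular injury and 3 of 31 of chemokines and cytokines, all lower in CKD, and 3 of 31 of solute transport, 3 of 39 of proximal tubule metabolism and 6 of 39 of cell cycle, all higher. Its 98 calls over all genes were 60 higher (0.441%) and 38 lower (0.279%). The tubular injury list had a median log2 fold change of -0.47 over its 25 genes against 0.00 over all genes tested. In 13 of its genes the groups did not overlap and CKD was lower, against 25.4% of all genes. Lcn2, which encodes the iron-binding protein NGAL secreted by injured tubules, lay at 1194 and 972 CPM in AKI, 519 and 554 CPM in CKD and 37.1 CPM in the control (adjusted p = 0.093, edgeR). Both CKD libraries lay well below both AKI libraries and well above the control. Sox4, a transcription factor of immature epithelium, lay at 292 and 296 CPM in AKI and 159 and 160 CPM in CKD (adjusted p = 0.085). Vcam1, an adhesion molecule of injured proximal tubule, lay at 99.2 and 71.3 CPM in AKI and 19.9 and 8.31 CPM in CKD (adjusted p = 0.090), but its level in the macrophage gate was higher throughout. The complement list had a median of -0.53 over 14 genes. C3, the central complement component, lay at 330 and 436 CPM in AKI and 112 and 90.0 CPM in CKD (adjusted p = 0.067).

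Lists of proximal tubule function pointed the other way. The median was 0.30 over 31 genes of solute transport, with 13 genes higher in CKD without overlap and none lower, where 15.5% of all genes were higher without overlap. The urate transporter Slc22a12 lay at 25.5 and 34.8 CPM in AKI and 67.9 and 76.8 CPM in CKD (adjusted p = 0.085, edgeR). Miox, which breaks down inositol in the proximal tubule, lay at 174 and 171 CPM in AKI and 350 and 323 CPM in CKD (adjusted p = 0.067). All 73 genes of the nuclear respiratory chain list had a positive fold change, with a median of 0.22 and 60 genes without overlap, yet only 6 had an unadjusted p under 0.05 and neither edgeR nor DESeq2 called any. The cell cycle list had a median of 0.96 over 39 genes, 27 of them higher at an unadjusted p under 0.05, against 5.55% of all genes. Under the strict gate 10 of its genes could be tested, with a median of 0.079 and none called by edgeR. Over all barcodes 38 of the 39 were no higher in the epithelium than in the T lymphocyte gate. That gate cannot gauge free RNA for genes that its own cells express. Mki67, for instance, lay at 4.50 and 4.26 CPM in AKI and 12.6 and 13.2 CPM in CKD, against 72.2, 71.5, 201 and 177 CPM in the T lymphocyte gates. Cdkn2a, a senescence-associated cell cycle inhibitor, lay at 5.28 and 3.32 CPM in AKI and 0.270 and 0.287 CPM in CKD, on 87 UMIs in all (adjusted p = 0.092).

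**Figure D3:**
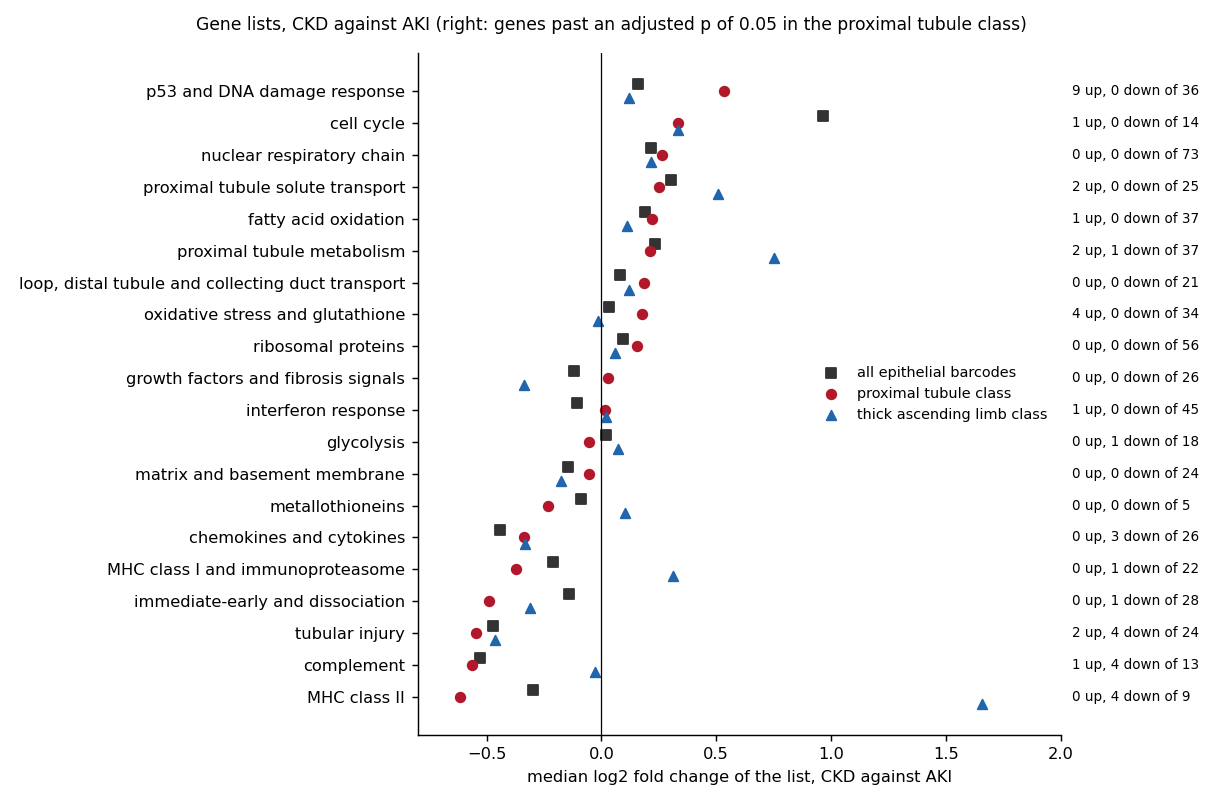
The horizontal axis gives the median log2 fold change of each of the 20 gene lists, CKD against AKI, over all epithelial barcodes (squares) and within the proximal tubule (circles) and thick ascending limb (triangles) classes, and the right-hand column counts the genes past the threshold in the proximal tubule class. The p53 list is highest in the proximal tubule class at 0.53, and the MHC class II list lies at -0.62 there and at 1.66 in the thick ascending limb class.

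The comparison was then made within classes, which takes out the share of each class but not the makeup inside a class. In the proximal tubule class, which rested on 194 and 210 AKI and 487 and 111 CKD barcodes, 150 of 10440 genes passed (1.44%). Of these, 91 rose (0.872%) and 59 fell (0.565%) from AKI to CKD, and DESeq2 called 85. At an unadjusted p under 0.05 stood 12.4%, 6.8% higher and 5.57% lower. Leaving out a library moved the count a good deal: 31 genes passed without AKI 1 (13 higher, 18 lower), 47 without AKI 2, 405 without CKD 1 and 412 without CKD 2. Of 73 called genes followed one by one, 21 still passed without AKI 1, 30 without AKI 2, 60 without CKD 1 and 73 without CKD 2. Among the genes that rose, 27 of 91 were no higher than the T lymphocyte or the macrophage gate, and among those that fell, 20 of 59. T lymphocyte markers summed to 100 and 86.5 CPM in AKI and 159 and 102 CPM in CKD within this class, and macrophage markers to 89.0 and 123 CPM against 114 and 52.0 CPM. The comparison was repeated under the strict gate in proximal tubule barcodes (added after the values were seen, with 58 and 39 AKI and 154 and 42 CKD barcodes). There 64 of 5706 genes passed (1.12%). Of the genes called over all barcodes that could be tested there, 25 of 66 that rose and 17 of 44 that fell passed again. These barcodes are part of those of the first test, so this is no independent test.

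Of the 20 lists, that of p53 targets held the most called genes in the proximal tubule class. Of 36 genes of the p53 and DNA damage list, 9 rose and none fell, with a median log2 fold change of 0.53 against 0.00 over all genes. Cdkn1a, the p21 cell cycle inhibitor, lay at 209 and 252 CPM in AKI, 489 and 380 CPM in CKD and 16.9 CPM in the control, and rose by 0.97 ± 0.18 on the log2 scale (SE, adjusted p = 0.015, edgeR). Mdm2, the ubiquitin ligase that degrades p53 and is itself a p53 target, lay at 73.9 and 76.0 CPM in AKI and 164 and 238 CPM in CKD, with 29.0 CPM in the control. It rose by 1.45 ± 0.19 (adjusted p = 0.0016). In both genes each CKD library exceeded each AKI library, and both groups exceeded the control. The other 7 were Ccng1 (cyclin G1), Phlda3 (an inhibitor of Akt signalling), Aen (a p53-induced nuclease), Plk2 (a stress-induced kinase), Psrc1, Dglucy and Mgmt, which repairs alkylated guanine in DNA. Their rises ranged from 0.85 ± 0.19 for Ccng1 to 2.17 ± 0.29 for Psrc1. Ccng1 lay at 167 and 233 CPM in AKI and 357 and 338 CPM in CKD. Phlda3 lay at 53 and 46.2 CPM in AKI, 83.8 and 89.3 CPM in CKD and 6.2 CPM in the control. Both were above the T lymphocyte gate in every library, whereas Cdkn1a and Plk2 were no higher than the macrophage gates. Cdkn1a gave at least 1 UMI in 45.9% and 56.7% of AKI and 64.7% and 60.4% of CKD proximal tubule barcodes, against 31.3% to 40.2% of T lymphocyte barcodes. Under the strict gate Mdm2 and Plk2 rose again, and Cdkn1a lay at 112 and 350 CPM in AKI and 535 and 597 CPM in CKD without passing (adjusted p = 0.101).

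The stretch just upstream of the Cdkn1a start site is shown because it alone among the promoters of the list held the letters searched (RefSeq annotation, GRCm38.p6, chr17:29090829-29090978, plus strand, the bases next to the start site and outside the first exon). Capitals mark the letters CATGNNNNNNCATG, the core of a paired p53 half-site, which reads the same on both strands and starts 48 bases before the start site.
Cdkn1a: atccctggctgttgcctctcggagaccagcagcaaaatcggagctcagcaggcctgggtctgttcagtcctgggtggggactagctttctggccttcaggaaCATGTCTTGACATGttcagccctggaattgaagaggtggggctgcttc
These letters were found in the 250 bases before the start of 161 of 32851 promoters (0.49%), and in 1 of the 31 genes of the p53 list that had a promoter sequence. A match describes letters only, and p53 sites of other spelling or position were not searched.

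In the proximal tubule class, 4 of 13 tested complement genes fell and 1 rose. C3 lay at 907 and 980 CPM in AKI, 249 and 214 CPM in CKD and 282 CPM in the control, and fell by 1.97 ± 0.18 on the log2 scale (SE, adjusted p = 8.2e-05, edgeR). Both CKD libraries were below the control library over all barcodes, but under the strict gate they lay above it (258 and 78.9 CPM against 61 CPM, with 1024 and 1285 CPM in AKI). The level over all barcodes stood above both gates, which held at most 19.1 CPM (T lymphocyte) and 153 CPM (macrophage). C4b fell by 0.92 ± 0.19 and Cfi, which cleaves C3b, by 0.86 ± 0.16. Cd55, which protects cells from complement, rose at low levels, from 1.14 and 3.8 CPM to 12.1 and 17.9 CPM. The 13 tested complement genes had a median of -0.56.

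Of 24 tubular injury genes, 4 fell and 2 rose, with a median of -0.54. Vcam1 lay at 116 and 124 CPM in AKI, 29.2 and 21.0 CPM in CKD and 52.6 CPM in the control, and fell by 2.13 ± 0.19 (SE, adjusted p = 8.2e-05, edgeR). Its UMIs were concentrated, with 52.9% to 74.1% of them in the 5 richest barcodes of each of the 4 libraries, and its level was no higher than in the macrophage gate. Sox4 lay at 218 and 207 CPM in AKI, 117 and 66.0 CPM in CKD and 203 CPM in the control, and fell by 1.11 ± 0.21. The scaffold gene Akap12 fell by 1.28 ± 0.28 and Dcdc2a, of the primary cilium, by 1.13 ± 0.22. The 2 that rose were Cdkn1a and Vim, the intermediate filament vimentin, whose 25 and 27.2 CPM in AKI and 72.5 and 45.0 CPM in CKD were far below its level in both gates. Pdpn (podoplanin), Osmr (the oncostatin M receptor) and Cp (ceruloplasmin), which are in none of the lists, also fell. Pdpn went from 33.7 and 69.3 CPM to 7.40 and 2.33 CPM, a fall of 3.04 ± 0.39. Ugt2b37, a glucuronosyltransferase, went from 554 and 886 CPM to 187 and 158 CPM, with 182 CPM in the control. The chemokines Ccl8 and Ccl12, the apoptosis inhibitor Birc3 and the pattern receptors Tlr2 and Cd14 fell as well but were no higher than in the macrophage gates, where Ccl8 itself stood at 2127 and 1854 CPM in AKI and 263 and 224 CPM in CKD. Il34, a macrophage growth factor made by tubules, was above both gates and lay at 37.1 and 40.3 CPM in AKI and 18.0 and 23.3 CPM in CKD. It fell by 0.93 ± 0.21 (adjusted p = 0.045). Cebpd, an acute-phase transcription factor, was the only called gene among 28 immediate-early and dissociation genes, of which 14 had an unadjusted p under 0.05 and were lower in CKD.

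MHC class II genes, which encode the proteins that present peptides to CD4+ T cells and which injured tubules can express, also fell in the proximal tubule class. Of 9 tested genes of the list, 4 fell and none rose, with a median of -0.62. Cd74, the invariant chain, lay at 2716 and 3245 CPM in AKI, 1316 and 1532 CPM in CKD and 352 CPM in the control, and fell by 1.01 ± 0.20 on the log2 scale (SE, adjusted p = 0.020, edgeR). H2-Aa lay at 633 and 791 CPM in AKI and 301 and 334 CPM in CKD, with 73.2 CPM in the control, and fell by 1.12 ± 0.18 (adjusted p = 0.0057). H2-Eb1 and H2-Ab1 fell by 0.96 ± 0.17 and 0.86 ± 0.19, and H2-DMb2, which is outside the list, by 1.23 ± 0.19. Every AKI library was above every CKD library, and every one of the 4 was above the control. These genes were more abundant than in the T lymphocyte gate of AKI libraries (546 and 851 CPM for Cd74) but not in each CKD library, where H2-Aa at 301 CPM in CKD 1 was below its 404 CPM in the gate, and far below the macrophage gate. In the macrophage gate itself Cd74 was at 18857 and 18156 CPM in AKI and 10929 and 11246 CPM in CKD, and H2-Aa at 7647 and 7573 CPM against 3970 and 4684 CPM. Both were thus lower in CKD there too, and the part of this in the proximal tubule values was not tested. At least 1 UMI of Cd74 was seen in 86.6% and 96.7% of AKI and 76.6% and 70.3% of CKD barcodes of the class, against 53.8% to 69.2% of T lymphocyte barcodes. Under the strict gate Cd74 lay at 2864 and 2924 CPM in AKI and 1341 and 973 CPM in CKD, and H2-Aa, H2-Ab1, H2-Eb1, H2-DMb2 and Cd74 all fell again. The share of this level that is free RNA was not tested.

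The promoters of H2-Aa and H2-Eb1, which are among the 3 list genes that hold the same Y-box letters, are shown side by side (RefSeq annotation, GRCm38.p6). The stretch of H2-Aa is chr17:34287824-34287973 on the minus strand and that of H2-Eb1 is chr17:34305717-34305866 on the plus strand. Capitals mark CTGATTGG, the inverted CCAAT sequence known from MHC class II promoters, which starts 51 bases before the start site in H2-Aa and 62 bases before it in H2-Eb1.
H2-Aa: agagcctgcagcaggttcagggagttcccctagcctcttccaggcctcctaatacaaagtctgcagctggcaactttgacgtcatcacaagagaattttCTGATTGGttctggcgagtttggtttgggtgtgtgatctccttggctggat
H2-Eb1: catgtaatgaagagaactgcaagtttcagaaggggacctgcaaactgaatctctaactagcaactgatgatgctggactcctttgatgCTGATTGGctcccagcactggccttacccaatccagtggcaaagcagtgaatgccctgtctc
On either strand the letters stood in 1258 of 32851 promoters (3.83%) and in 3 of the 8 genes of the list with a promoter sequence, H2-Aa, H2-Eb1 and H2-Oa.

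Single transport, metabolic and detoxification genes of the proximal tubule rose, 2 of 25 tested in solute transport, 2 of 37 in proximal tubule metabolism, where 1 fell, and 1 of 37 in fatty acid oxidation. Slc22a12 lay at 86.4 and 83.9 CPM in AKI, 178 and 205 CPM in CKD and 92.0 CPM in the control, and rose by 1.22 ± 0.16 on the log2 scale (SE, adjusted p = 0.0016, edgeR). Over all barcodes of the class both AKI libraries were close to the control, and the fitted fold was 2.32. Under the strict gate Slc22a12 lay at 77.8 and 51.5 CPM in AKI, 195 and 251 CPM in CKD and 135 CPM in the control. Both AKI libraries were thus below the control there. The water channel Aqp1 rose by 1.32 ± 0.26, although 3 of the 4 libraries were below their T lymphocyte gate, and these 2 were the called genes among the 25 of solute transport that did not serve to define the class. Outside the lists, the organic cation transporter Slc22a2, the related Slc22a28 and the GABA transporter Slc6a13 rose by 1.03 ± 0.23, 2.60 ± 0.33 and 0.88 ± 0.20. Ggt1, the brush border enzyme that splits glutathione, lay at 79.2 and 75.4 CPM in AKI and 145 and 179 CPM in CKD and rose by 1.11 ± 0.17. Miox lay at 609 and 410 CPM in AKI, 975 and 864 CPM in CKD and 1945 CPM in the control, so CKD was between AKI and the control. Acaa1b, a peroxisomal thiolase of fatty acid oxidation, lay at 97.4 and 88.2 CPM in AKI and 197 and 235 CPM in CKD, with 100 CPM in the control, and was the only called gene of 37 in that list. Cyp2e1, a cytochrome P450, moved the other way, from 295 and 334 CPM to 156 and 186 CPM, and fell by 0.84 ± 0.17.

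Some glutathione S-transferases, which conjugate reactive metabolites, rose. The 4 called genes of 34 in the oxidative stress and glutathione list were Gsta1, Gsta3, Gsta4 and Gstp1, while the transferases Gsta2, Gstm1, Gstm2 and Mgst1 of the same list, at changes of 0.40, 0.57, -0.02 and 0.03, did not pass. Gstp1 lay at 14.8 and 16.9 CPM in AKI and 54.8 and 40.4 CPM in CKD and rose by 1.68 ± 0.22 (SE, adjusted p = 0.0015, edgeR). Gsta3 lay at 102 and 74.5 CPM in AKI and 172 and 200 CPM in CKD and rose by 1.13 ± 0.18. Gsta1 was low and uneven, at 0.379 and 1.46 CPM in AKI and 10.2 and 46.6 CPM in CKD. Its neighbours in sequence are close, so reads may have been split between Gsta genes. Ephx1 (epoxide hydrolase), Cbr3 (carbonyl reductase), Ces2e and Ces1f (carboxylesterases), Aldh2 and Akr1c21 rose by 1.27 ± 0.23, 2.08 ± 0.37, 2.27 ± 0.25, 1.71 ± 0.25, 0.74 ± 0.16 and 0.75 ± 0.17. Dnase1, a secreted nuclease, went from 352 and 348 CPM to 705 and 769 CPM, and Car3 (carbonic anhydrase 3) from 17.8 and 17.2 CPM to 77.0 and 41.9 CPM.

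The smallest p in the class belonged to Cox6b2, a cytochrome c oxidase subunit known mainly from testis. It lay at 36.0 and 26 CPM in AKI, 193 and 158 CPM in CKD and 17.6 CPM in the control, and rose by 2.58 ± 0.20 on the log2 scale (SE, adjusted p = 2.4e-05, edgeR). At least 1 UMI was found in 18.6% and 19.5% of AKI and 44.8% and 48.6% of CKD barcodes, against at most 6.10% of T lymphocyte barcodes, and the 5 richest barcodes held 15.6% to 36.3% of the UMIs. The rise was thus spread over many barcodes, and it recurred under the strict gate (24.8 and 41.2 CPM against 185 and 221 CPM). The list of 73 other respiratory chain genes had a median of 0.26 and no called gene by edgeR and 1 by DESeq2, with 14 higher at an unadjusted p under 0.05. Serpine2 (protease nexin-1) went from 22 and 23.7 CPM to 71.3 and 65.2 CPM, with 6.2 CPM in the control, and rose by 1.64 ± 0.19. Several other genes that rose were at the level of the gates. Mmp9, Ctsk, Lpl, S100a4, Ifi27l2a, Coro1a, Cd52, Acp5 and Ube2c were no higher in this class than in the T lymphocyte or macrophage gates of the same libraries. Mmp9, at 0 in both AKI libraries of the class, stood at 21.6 and 8.54 CPM in CKD.

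**Figure D4:**
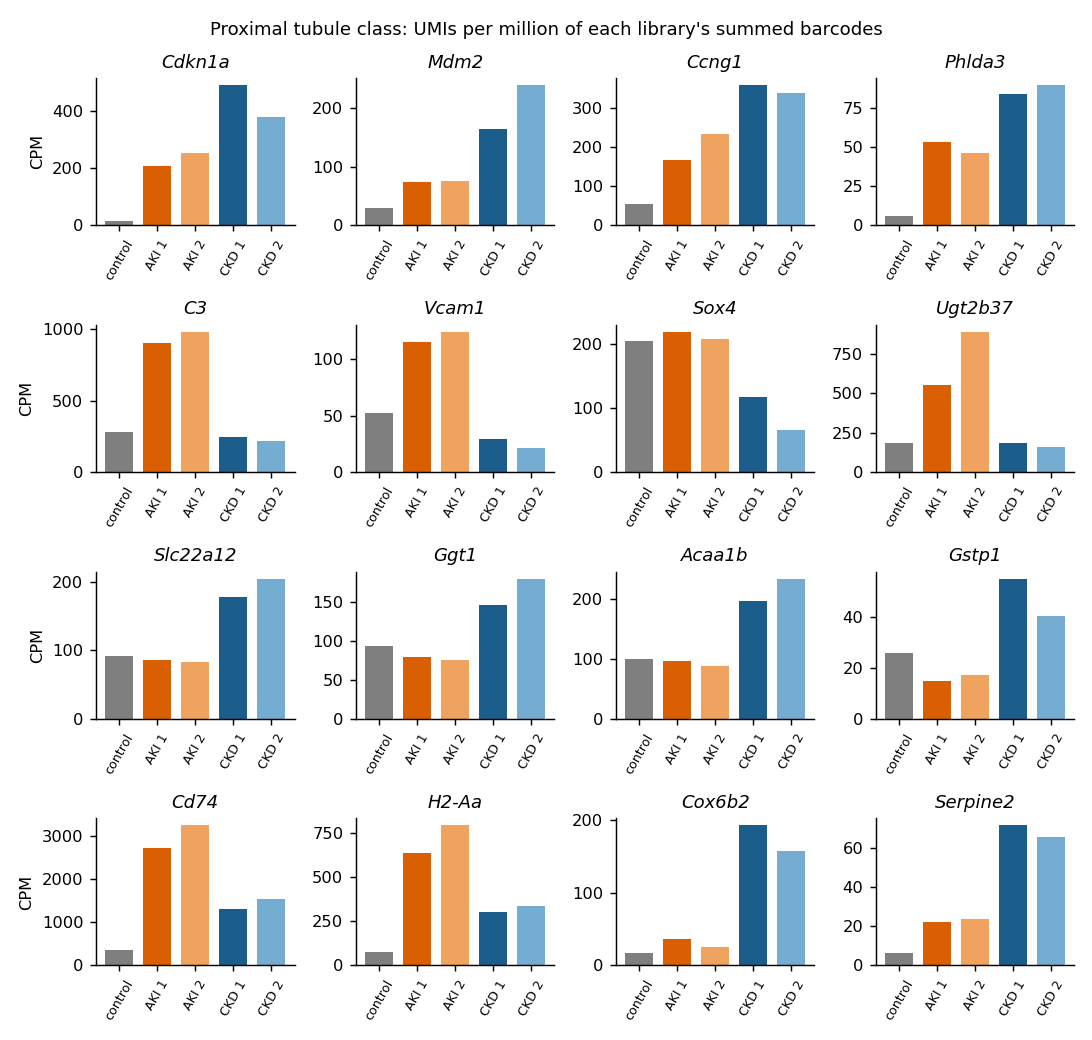
Bars give the CPM of 16 genes in the proximal tubule class of each library, on axes that start at 0, with no error bars since each bar is 1 library. The p53 targets of the top row are highest in both CKD libraries, the genes of the second row and Cd74 and H2-Aa are highest in both AKI libraries, and Cox6b2 is at 193 and 158 CPM in CKD against 36.0 and 26 CPM in AKI.

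In the thick ascending limb class, with 231 and 131 AKI and 724 and 66 CKD barcodes, 39 of 9711 genes passed (0.402%), 31 higher in CKD (0.319%) and 8 lower (0.0824%), and DESeq2 called 25. At an unadjusted p under 0.05 stood 6.86%, 3.7% higher and 3.16% lower. Without AKI 2 the count was 100, without CKD 1 131 and without CKD 2 702, and without CKD 1 more genes were lower (79) than higher (52) in CKD. Under the strict gate (71 and 28 AKI and 146 and 23 CKD barcodes) edgeR called none of 3338 genes, with 285 at an unadjusted p under 0.05, and 8 of 24 called genes followed one by one could be tested. Of the 8 that fell, Nupr1, a stress-induced transcription regulator, lay at 381 and 624 CPM in AKI, 107 and 81.3 CPM in CKD and 28 CPM in the control, and fell by 2.31 ± 0.28 on the log2 scale (SE, adjusted p = 0.0077, edgeR). Of its AKI UMIs, 63.7% and 65.4% lay in 5 barcodes. Il1f6, the epithelial cytokine interleukin-36 alpha, fell from 27.5 and 46.7 CPM to 2.08 and 3.97 CPM, on 7 and 2 UMIs in CKD, so no fold is given. It also rested on few cells, with 89.3% and 91.7% of its AKI UMIs in 5 barcodes, and under the strict gate it lay at 3.46 and 11.2 CPM in AKI and 1.22 and 0 CPM in CKD. Hk2 (hexokinase 2), Sdc1 (syndecan-1), Klf4 and Cp fell by 1.92 ± 0.33, 1.32 ± 0.22, 1.21 ± 0.22 and 2.65 ± 0.44, and 5 barcodes held 81.2% and 75.4% of the Cp UMIs in AKI. Hs6st2 was at 9.81 and 8.76 CPM in AKI and at 0 in both CKD libraries, on 29 UMIs, and 3 of the 8 genes that fell, Ccl8, Hk2 and Klf4, were no higher than in the macrophage gates.

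Egf, the growth factor secreted by the thick ascending limb, was among the 4 genes that rose there and stood above both gates. It lay at 316 and 188 CPM in AKI, 782 and 587 CPM in CKD and 9417 CPM in the control, and rose by 1.5 ± 0.28 on the log2 scale (SE, adjusted p = 0.048, edgeR). Both phases were far below the control library. At least 1 UMI was present in 30.3% and 24.4% of AKI and 46.8% and 57.6% of CKD barcodes of the class, against 1.30% to 9.21% of T lymphocyte barcodes. The 5 richest barcodes held 31.5% and 76.2% of its UMIs in AKI and 16.6% and 55.1% in CKD. With the strict gate it lay at 288 and 84.1 CPM in AKI and 1385 and 1035 CPM in CKD, with 10456 CPM in the control. Tmem151a also rose above both gates, by 2.06 ± 0.36, and Lpl (lipoprotein lipase), which rose by 1.90 ± 0.32, was above the T lymphocyte but not the macrophage gate.

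Of the 31 genes that rose in this class, 27 were no higher than in the T lymphocyte or macrophage gates, and MHC class II genes were among them. Cd74 lay at 244 and 287 CPM in AKI and 1207 and 827 CPM in CKD, and rose by 2.01 ± 0.26 (SE, adjusted p = 0.011, edgeR). H2-Aa, H2-Ab1 and H2-DMa rose by 1.82 ± 0.27, 1.78 ± 0.31 and 2.00 ± 0.31. They rose beside genes of leukocytes: Ccr7 and Ccl17, a chemokine receptor and a chemokine of activated dendritic cells, S100a4, Spi1, Il1b, Coro1a, Cd52, Mmp9 and Acp5. T lymphocyte markers summed to 140 and 140 CPM in AKI and 690 and 139 CPM in CKD in this class, and macrophage markers to 157 and 275 CPM against 609 and 143 CPM, with the highest value in CKD 1 in both lists. In CKD 2, 364 of 417 Cd74 UMIs came from 1 barcode. Without barcodes carrying Ccr7 or Ccl17, Cd74 was at 216 and 301 CPM in AKI and 682 and 114 CPM in CKD, so the groups overlapped. With the strict gate it was at 260 and 185 CPM in AKI and 143 and 43.1 CPM in CKD, the opposite direction, without passing.

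**Figure D5:**
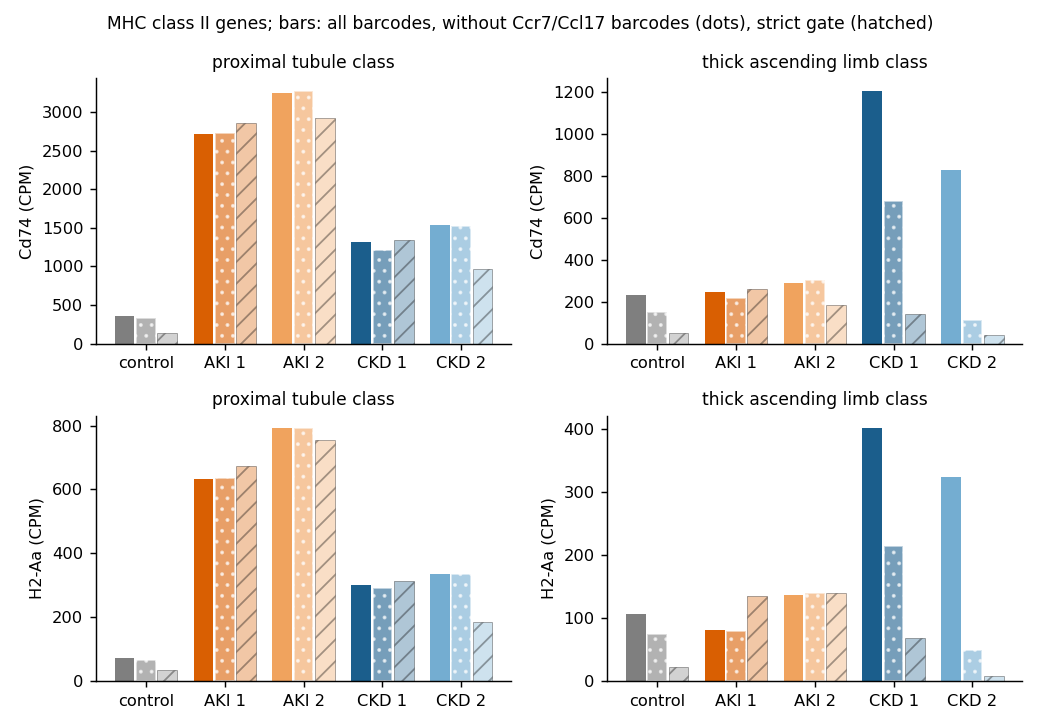
Bars give the CPM of Cd74 (top) and H2-Aa (bottom) in the proximal tubule class (left) and the thick ascending limb class (right) of each library, over all barcodes (plain), without barcodes that carry Ccr7 or Ccl17 (dotted) and under the strict gate (hatched). In the proximal tubule class CKD stays below AKI in each setting, whereas the high CKD bars of the thick ascending limb class, 1207 and 827 CPM for Cd74, drop to 143 and 43.1 CPM under the strict gate.

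Whether the effect differed between the segments was tested as an interaction on the sums of both classes, with the library as a block. For proximal tubule against thick ascending limb, a contrast added after the values were seen, 13 of 11418 genes passed (0.114%). Cd74 and H2-Aa differed by -2.97 ± 0.30 and -2.94 ± 0.29 on the log2 scale (SE, adjusted p = 0.00066 for both, edgeR), as did H2-Eb1, H2-Ab1, H2-DMa and H2-DMb2 by -2.45 to -3.39, the proximal tubule effect being the lower one. These differences include the thick ascending limb rise, in which 364 of 417 Cd74 UMIs of CKD 2 came from 1 barcode. The interaction was not tested under the strict gate, where Cd74 was lower in CKD in both classes. Cox6b2 and Serpine2 differed by 2.35 ± 0.30 and 2.93 ± 0.50, the proximal tubule effect being the higher one. Neither passed in the thick ascending limb class, where the log2 fold changes were 0.24 ± 0.26 and -1.36 ± 0.49. Against all other tubule classes together, 2 of 12599 genes passed (0.0159%), Acp5 at -5.08 ± 0.38 and Cox6b2 at 2.19 ± 0.22. The Acp5 value includes the barcodes rich in Mmp9, Ctsk and Acp5 described above, and their part in it was not tested. The p53 genes did not pass either interaction, so their rise was not shown to be particular to the proximal tubule.

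Of the other classes, results are given for the connecting tubule and principal cell class and the intercalated cell class only. In the connecting tubule and principal cell class 1 of 10036 genes passed (0.00996%), with 588 at an unadjusted p under 0.05 (5.86%), and DESeq2 called 16. In the intercalated cell class 68 of 8054 genes passed (0.844%), 59 of them higher in CKD (0.733%) and 9 lower (0.112%), and 50 of those 59 were no higher than in the T lymphocyte or macrophage gates. When intercalated cell barcodes had to carry a marker other than Atp6v0d2, 5 genes passed.

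The strict gate over all epithelial barcodes, which was chosen after the values were seen and kept 229 and 128 AKI and 485 and 103 CKD barcodes, gave 187 called genes of 9496 (1.97%), 122 higher (1.28%) and 65 lower (0.684%) in CKD. Of these, 60 were also called in the proximal tubule class over all its barcodes (32.1% of the 187 and 40% of the 150), none in the opposite direction. Genes of proximal tubule function were among those that rose: 12 of 37 genes of proximal tubule metabolism, 6 of 29 of solute transport and 6 of 35 of fatty acid oxidation passed and none fell, with medians of 0.76, 0.58 and 0.47. The proximal tubule class itself held more of the strict barcodes in CKD without overlap, 58 of 229 and 39 of 128 in AKI and 154 of 485 and 42 of 103 in CKD. Within that class under the same gate, 5 of 35 metabolism and 2 of 25 transport genes passed, with medians of 0.36 and 0.11, and 3 of 33 fatty acid oxidation genes rose and 1 fell, with a median of 0.32. Over all strict barcodes, 61 of 73 respiratory chain genes were higher at an unadjusted p under 0.05, against 769 of 9496 genes tested. Their median was 0.44 and edgeR called 1. In the strict proximal tubule class 48 of 73 were higher at that level, against 480 of 5706 genes tested. There the median was 0.42 and edgeR called 2. Slc22a6, the organic anion transporter OAT1 through which AAI can enter the cell, went from 16 and 21.4 CPM to 58.6 and 99.2 CPM. Pck1, of gluconeogenesis, went from 207 and 236 CPM to 432 and 862 CPM. Injury genes fell, 8 of 24 with 1 rising, Cdkn1a. Krt18, a keratin that injured tubules increase, went from 587 and 642 CPM to 238 and 204 CPM, and Clu (clusterin) from 2374 and 3552 CPM to 1481 and 1025 CPM. Sprr2f, a cornified envelope gene of stressed epithelium, went from 171 and 106 CPM to 0.896 and 0 CPM. It passed the filter on low counts through the AKI libraries, so its p (adjusted p = 4.9e-07, edgeR) goes with no fold. In every gene named in this paragraph both CKD libraries lay on 1 side of both AKI libraries.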

How the data were processed

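Droplet single-cell RNA libraries (10x Chromium) of whole kidney were used: 2 AKI, 2 CKD and 1 control. The authors aligned the reads with STAR inside Cell Ranger, and the deposited values are UMI counts per gene and barcode. Their processing notes name Cell Ranger 7.2.0 and GRCm39, whereas the headers of the AKI and CKD matrices name version 5.0.0 and the control gene list names mm10, so the control may have been processed differently, which its levels beside AKI and CKD do not account for. A background and doublet correction of the study was not applied to the deposited counts, so free RNA and doublets remain in them.

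UMIs of epithelial barcodes were summed per library and tested with edgeR 4.0.16 (filterByExpr, TMM, quasi-likelihood F test, R 4.3.3), with Benjamini-Hochberg adjustment over all genes tested and a threshold of 0.05. DESeq2 1.42.0 was the alternative tool. Genes of the barcode rule, segment markers within a class and mitochondrial genes were left out of the counts of calls. The SE is the absolute log2 fold change divided by the square root of F. Segment classes took the highest mean log1p of UMIs per 10000 over the markers of a class, with a minimum of 0.2; this scoring rule was chosen after the data were seen. The T lymphocyte gate required at least 1 UMI of a Cd3 gene and the macrophage gate at least 3 C1q UMIs, each with no UMI of Cdh16, Epcam or the defining genes of the other gate. Intervals of shares are exact binomial and cover counting error only. On simulated data made for the comparison over all epithelial barcodes (13438 genes, 200 of them changed), 72% of the changes of 1 and 100% of those of 2 on the log2 scale were recovered, with 6 false calls. The simulation gave every gene the same dispersion and placed changes only in well-counted genes. Its recovery therefore does not measure how many real changes the test could find.

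Named genes were, per direction, up to 12 called genes with the largest change, non-overlapping groups and at least 100 UMIs, and up to 4 genes of each list with the smallest p. After values were seen, this rule was extended to the proximal tubule and thick ascending limb classes. Ctsk, Ccr7, Ccl17, Atp6v0d2, Cox6b2, Serpine2 and the called genes outside the rule were also chosen after their values were seen. The members and the gene lists were chosen with earlier results of these data known. Alternatives were other size factors, no count filter, a replicate block, leaving out each library, other barcode limits and the strict gate. One gene's result is not reported here. Promoters came from RefSeq (GRCm38.p6).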

Additional observations from a re-analysis of the deposited data

Results flagged for a closer look

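These genes had a CKD against AKI effect that differed between tubule classes by an interaction test (edgeR, adjusted p under 0.05, with the library as a block). Values are the proximal tubule effect minus the other effect, on the log2 scale. Against all other tubule classes together, Acp5 differed by -5.08 and Cox6b2 by 2.19. Of barcodes with over 2 UMIs of Mmp9, Ctsk and Acp5 together, CKD 1 had 149 in the thick ascending limb, 36 in the intercalated cell and 46 in the proximal tubule class. Intercalated cell barcodes with no UMI of the other markers of that class held 1529 of 4477 epithelial Acp5 UMIs in CKD 1 and 289 of 407 in CKD 2. The part of all these barcodes in the Acp5 value was not tested.

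Against the thick ascending limb class, 6 genes of the MHC class II pathway differed in the same direction. The differences were -2.97 for Cd74, -2.94 for H2-Aa, -2.45 for H2-Eb1, -2.57 for H2-Ab1, -2.6 for H2-DMa and -3.39 for H2-DMb2. Ifi30, a lysosomal reductase of antigen processing, differed by -1.67, Malt1 by -2.11 and Plekho1 by -3.23. In the proximal tubule class Ifi30 lay at 59.9 and 55.5 CPM in AKI and 69.4 and 39.6 CPM in CKD. In the thick ascending limb class it lay at 59.9 and 63.2 CPM against 228 and 139 CPM. The thick ascending limb values rest in part on few barcodes, since 364 of 417 Cd74 UMIs of CKD 2 came from 1 of them, and under the strict gate Cd74 and H2-Aa were lower in CKD in both classes, though not past the threshold in the thick ascending limb class.

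In the opposite direction stood Cox6b2 at 2.35, Serpine2 at 2.93, Crip2 at 1.92 and Olfm4 at 2.43. Cox6b2 lay at 31.4 and 27.2 CPM in AKI and 30.9 and 39.7 CPM in CKD in the thick ascending limb class. Crip2, a LIM domain protein, went from 6.06 and 5.84 CPM to 22.8 and 20.2 CPM in the proximal tubule class, whereas it lay at 144 and 150 CPM in AKI and 126 and 177 CPM in CKD in the thick ascending limb class. Olfm4 lay at 5.30 and 6.72 CPM against 9.10 and 15.5 CPM in the proximal tubule class and at 35.8 and 82.7 CPM against 17.6 and 21.8 CPM in the thick ascending limb class.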

How the results depend on the processing

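Over all epithelial barcodes, the 1 called gene became 98 with DESeq2, 700 with no filter on low counts, 13 with equal barcodes per segment class, 16 with barcodes thinned to 1000 UMIs and 2 with the newer quasi-likelihood method of edgeR. It became 0 with at most 15% mitochondrial UMIs, with at least 2 UMIs of Cdh16 and Epcam, with no C1q UMI, and with at most 2 UMIs of Mmp9, Ctsk and Acp5, where 973, 1058, 1163 and 1174 genes stood at an unadjusted p under 0.05 (edgeR, DESeq2 not run). The last of these limits takes out Mmp9 by construction. The strict gate gave 187. Leaving out 1 library gave 2 to 62 genes, the latter without CKD 2 and 8 without AKI 2. In the proximal tubule class the 150 called genes became 454 with no filter, 85 with DESeq2, 64 under the strict gate, 90 with at most 2 UMIs of Mmp9, Ctsk and Acp5 and 31 to 412 with 1 library left out (31 without AKI 1, 47 without AKI 2, 405 without CKD 1, 412 without CKD 2). In the thick ascending limb class the 39 became 292, 25 and 0 in the first 3 of these settings, and 31 to 702 with 1 library left out (100 without AKI 2, 131 without CKD 1, 702 without CKD 2). Under the strict gate the fold changes of Cd74, H2-Aa and H2-Ab1 turned to -0.93, -1.26 and -0.38 there. In the intercalated cell class the 68 became 202, 32 with DESeq2, 5 with another marker and 56 to 496 with 1 library left out (104 without AKI 1, 496 without CKD 2). In the connecting tubule class the 1 became 246, 16 with DESeq2 and 1 to 233 with 1 library left out (5 without AKI 1, 57 without CKD 1, 233 without CKD 2). The causes of these differences were not tested. The distal convoluted tubule difference of -1.99 percentage points became -1.32, -1.2 and -2.73 under the mitochondrial, the 2-UMI and the C1q limits. The thin limb difference of -2.11 percentage points became -0.992 under the C1q limit, -0.985 without AKI 2 and -3.24 without AKI 1. Fits without a library assume that the lone library of a group varies like the other group.

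Pairing by replicate number was looked at in the deviation of each library from the mean of its group. These deviations correlated at -0.0686 between same-numbered libraries over 13632 genes. With 2 libraries in a group the crossed value has the opposite sign by construction. So small a correlation cannot decide whether same-numbered libraries shared a batch. A replicate block gave 43 genes over all epithelial barcodes, 320 in the proximal tubule, 71 in the thick ascending limb and 53 in the connecting tubule class. With RLE size factors the 73 called genes named in the proximal tubule and the 24 in the thick ascending limb class kept direction and call, and without AKI 1 21 and 10 of them still passed.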

Other observations

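In the thick ascending limb class, genes of proximal tubule metabolism had a median log2 fold change of 0.75 over 25 genes and those of proximal tubule solute transport 0.51 over 14. None of them was called by edgeR or DESeq2, and 7 and 3 were higher at an unadjusted p under 0.05, against 3.7% of all genes tested in the class. Only 2 of the 25 and 2 of the 14 were higher in CKD without overlap of the groups, against 13% of all genes tested (1262 of 9711). Respiratory chain genes encoded in the nucleus had a positive fold change in 72 of 73 cases in the proximal tubule class and in 69 of 73 in the thick ascending limb class, with medians of 0.26 and 0.22. Both comparisons use the same libraries. In the T lymphocyte gates Egf stood at 8.57 and 3.41 CPM in AKI and 23.9 and 2.09 CPM in CKD, and Miox at 13.6 and 10.4 CPM against 56.6 and 5.76 CPM. Of the 4 libraries CKD 1 was highest for both genes. The summed markers of proximal tubule, thick ascending limb, distal convoluted tubule and intercalated cells were also highest there in CKD 1. Those of the proximal tubule lay at 83.3 and 84.5 CPM in AKI and 246 and 37.9 CPM in CKD. Those of the thin limb, the urothelium and the connecting tubule and principal cells were highest in AKI 1. The last of these stood at 88.4 CPM against 83.6 CPM in CKD 1.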
